A study of Rattus norvegicus with 4 samples.

Results

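The steroid hormone receptors and their coregulators were measured as 7 genes, namely the estrogen receptor genes Esr1 and Esr2, the progesterone receptor gene Pgr, the glucocorticoid receptor gene Nr3c1, the mineralocorticoid receptor gene Nr3c2, the coactivator gene Ncoa1 and the prolactin receptor gene Prlr. They were represented by every probe set that carried 1 of these symbols and no other in the platform annotation, which gave 18 of the 8740 probe sets that are not controls. Prlr had 5 probe sets, Pgr 4, Nr3c1 3, Esr2 and Nr3c2 2 each, and Esr1 and Ncoa1 1 each. Prlr is no steroid receptor but a cytokine-type membrane receptor, so the name of the set covers it only loosely.

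The arrays (Affymetrix rat genome U34, array A) carried RNA from the ischaemic side of the cortex after a stroke made by blocking the middle cerebral artery for 2 h by an intraluminal method. All rats were ovariectomised females, of which 1 group received estradiol replacement and the other placebo. Each group had 2 arrays, each array held the pooled RNA of 3 rats, and arrays are named estradiol 1, estradiol 2, placebo 1 and placebo 2. Tissue at 6 and 24 h is named in the series design text, and the code in each sample title holds a 6 that no label explains, so the time of these arrays is not given in words, and strain, age and dose are not given in the sources used here. Values are linear intensities that the authors had scaled to a common level per array, and errors are SDs over the 2 pools.

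Steroid hormones cross the cell membrane and bind receptors that act as ligand-activated transcription factors. Chaperones such as HSP90 hold the unbound glucocorticoid, mineralocorticoid and progesterone receptors, and p160 coactivators such as the product of Ncoa1 are recruited to the hormone-bound receptors. In the brain, Pgr is a classic estrogen-induced gene in hypothalamic neurons, the mineralocorticoid receptor binds corticosterone with higher affinity than the glucocorticoid receptor, and Prlr is abundant in the epithelium of the choroid plexus.

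The arrays were alike in overall brightness, with median intensities between 55.0 and 57.8. The arrays also carry 23 probe sets for foreign transcripts (bacterial, yeast and mouse), and the brightest of these set the background, 33.9 for estradiol 1, 37.8 for estradiol 2, 37.8 for placebo 1 and 30.1 for placebo 2. Probe sets no brighter than that on an array are called at background there. Between 58.9 and 64.6% of all probe sets lay above it. Of 9 measured neuron markers, between 7 and 8 were above background on each array, but Slc17a7, the glutamate transporter gene of cortical excitatory neurons, was at background on all 4. Summed levels of 10 striatum markers, Penk among them, were 2849 and 2673 under estradiol against 1927 and 2048 under placebo. Of these markers Drd2 was at background on all 4 arrays. Without Penk and Tac1, the sums were 1828 and 1738 under estradiol against 1644 and 1653 under placebo. In pooled tissue, fewer cells of a type and less RNA per cell cannot be told apart.

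Most receptor probe sets were close to the limit of measurement. Of the 18, 6 were above background on all 4 arrays, 6 on some arrays and 6 on none. Those above on all arrays were 1 probe set each of Esr2, Pgr, Nr3c2 and Ncoa1 and 2 of Prlr, and their log2 ratio to the highest foreign control reached 1.96 at most (Esr2, placebo 2). Esr1 was at background throughout, and Nr3c1 had no probe set above it on every array. The same split into all, some or no arrays is not given for all probe sets. The counts therefore describe the members and do not show that they were dimmer than other genes.

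**Figure D1:**
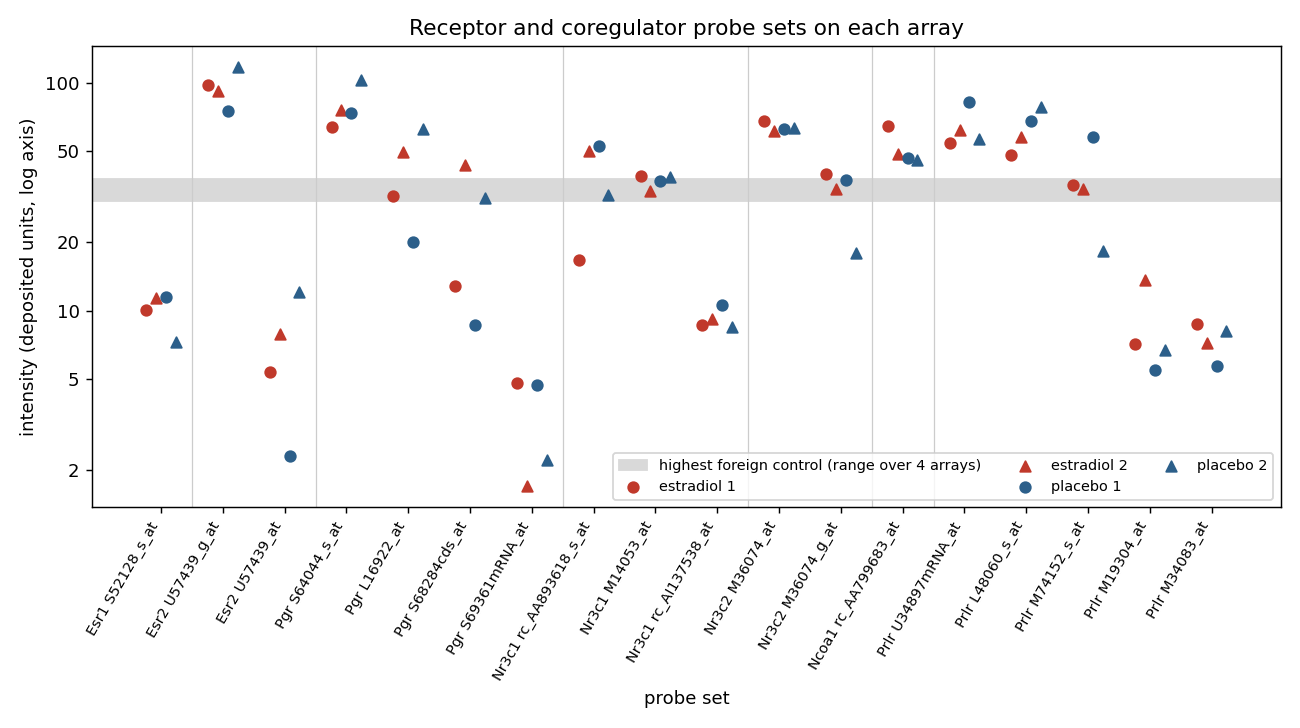
Intensity of each of the 18 probe sets on the 4 arrays (log axis, one point per array, red for estradiol and blue for placebo, circles for pool 1 and triangles for pool 2). The grey band spans the highest foreign control of the arrays, 30.1 to 37.8, and 6 probe sets lie below their array's control on every array.

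The treatments were compared with limma on log2(intensity + 16) over the 5244 probe sets whose mean reached 37.5, the 40th percentile. This left 8 of the 18, covering 6 genes, so the results of the test do not stand for all members. None of the 8 passed a Benjamini-Hochberg adjusted p of 0.05, as was true of all 5244 (0% called). At an unadjusted p below 0.05 the count was 0 of 8, against 3.07% (161) of all tested. The 8 fitted differences were 4 above and 4 below 0, with a median of -0.09 on the log2 scale against 0.01 over all tested, and their median size was 0.20 against 0.18. The groups did not overlap for 2 of the 8 (25%), against 29.7% of all tested, so the members' share was near the background. All 8 had an adjusted p of 0.998 in limma. With 2 pools against 2, the smallest two-sided p an exact permutation test of a single probe set can give is 0.333.

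**Figure D2:**
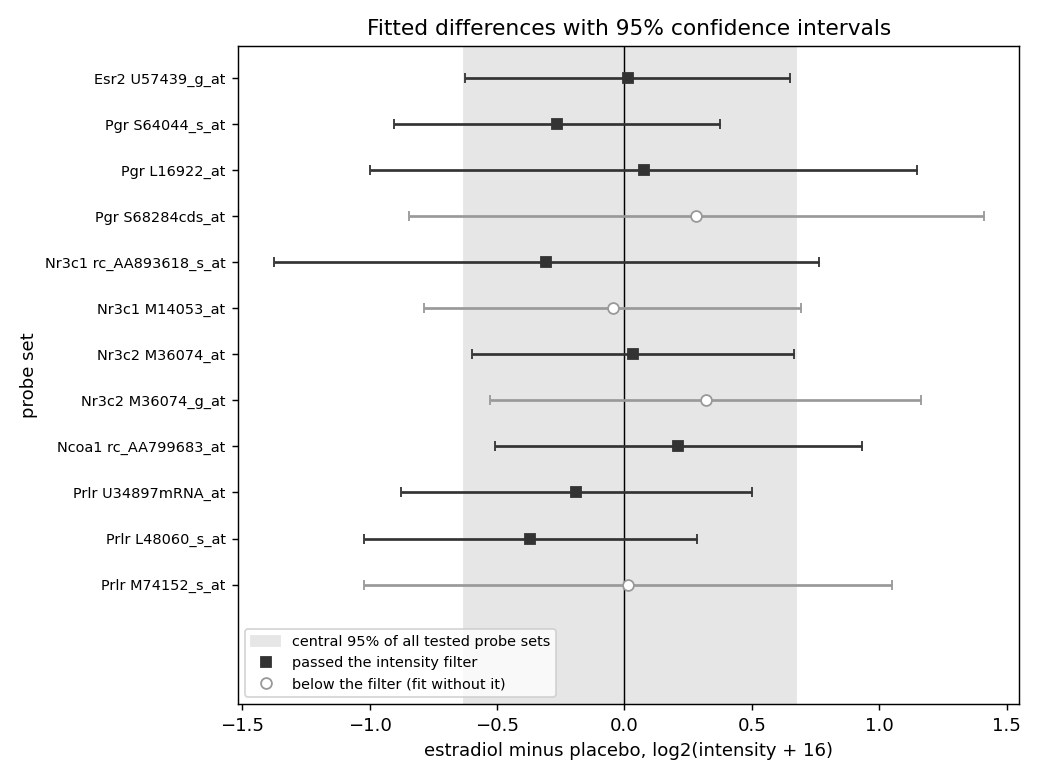
Fitted difference between estradiol and placebo on the log2(intensity + 16) scale with its 95% confidence interval, for the 12 probe sets above background on at least 1 array. Filled squares passed the intensity filter, open circles come from the fit without it, the grey band is the central 95% of all 5244 tested probe sets (-0.63 to 0.67), and each of the 12 intervals spans 0.

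Of the estrogen receptors, which bind estradiol itself, only Esr2 had a probe set above background. The probe set of Esr1 (S52128_s_at), the alpha receptor, read 10.1 and 11.3 under estradiol against 11.5 and 7.30 under placebo. These values were at log2 ratios between -2.04 and -1.72 to the highest foreign control of their array, so no difference is given. The probe set U57439_g_at of Esr2, the beta receptor, read 97.9 and 92.2 under estradiol against 75.0 and 117.2 under placebo. The placebo pools enclosed both estradiol pools. The means were 95.05 ± 4.03 (SD, n = 2) and 96.1 ± 29.8, and the fitted difference was 0.01 ± 0.27 (SE) with a 95% confidence interval from -0.62 to 0.65. The sign changed with the array left out, with -0.26 without placebo 1 and 0.29 without placebo 2. The difference was -0.03 without estradiol 1 and 0.05 without estradiol 2. A second probe set, U57439_at, was made from the same sequence record. It stood at 5.4, 7.9, 2.3 and 12.0 in estradiol 1, estradiol 2, placebo 1 and placebo 2, at background on every array. The 2 probe sets of Esr2 thus disagreed on whether the gene was detected.

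Pgr, the progesterone receptor gene, had no probe set with a difference that passed the test. Its probe set S64044_s_at read 64 and 75.7 under estradiol against 73.3 and 102.5 under placebo. The groups overlapped, with placebo 2 the highest. The fitted difference was -0.26 ± 0.27 (SE; 95% confidence interval -0.90 to 0.37), and -0.06 without placebo 2. A second tested probe set, L16922_at, read 31.9 and 49.7 under estradiol against 20 and 62.7 under placebo, a difference of 0.08 ± 0.46 (SE; 95% confidence interval -0.999 to 1.15). It was above background in pool 2 of each group and at background in pool 1 of each. The same held for S68284cds_at, which read 12.8 and 43.7 under estradiol against 8.6 and 31.3 under placebo. It lay below the filter, and the fit without the filter gave a difference of 0.28 (95% confidence interval -0.85 to 1.41). The fourth, S69361mRNA_at, lay between 1.7 and 4.8 and was at background on every array.

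The 3 Pgr probe sets that were above background on at least 2 arrays were each brighter in pool 2 than in pool 1 of both groups. On the log2(intensity + 16) scale, pool 2 minus pool 1 was 0.20 with estradiol and 0.41 with placebo for S64044_s_at. For L16922_at and S68284cds_at, pool 1 of both groups was at background, so the size of the gap is not given. Over all tested probe sets the median gap between pools, without regard to sign, was 0.26 with estradiol and 0.27 with placebo. Being brighter in pool 2 of both groups was common, seen in 1590 (30.32%) of the 5244 tested probe sets and in 6 of the 18 members, of which U57439_at and M19304_at were at background on every array. The labels do not say that pools with the same number share anything but the number.

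**Figure D3:**
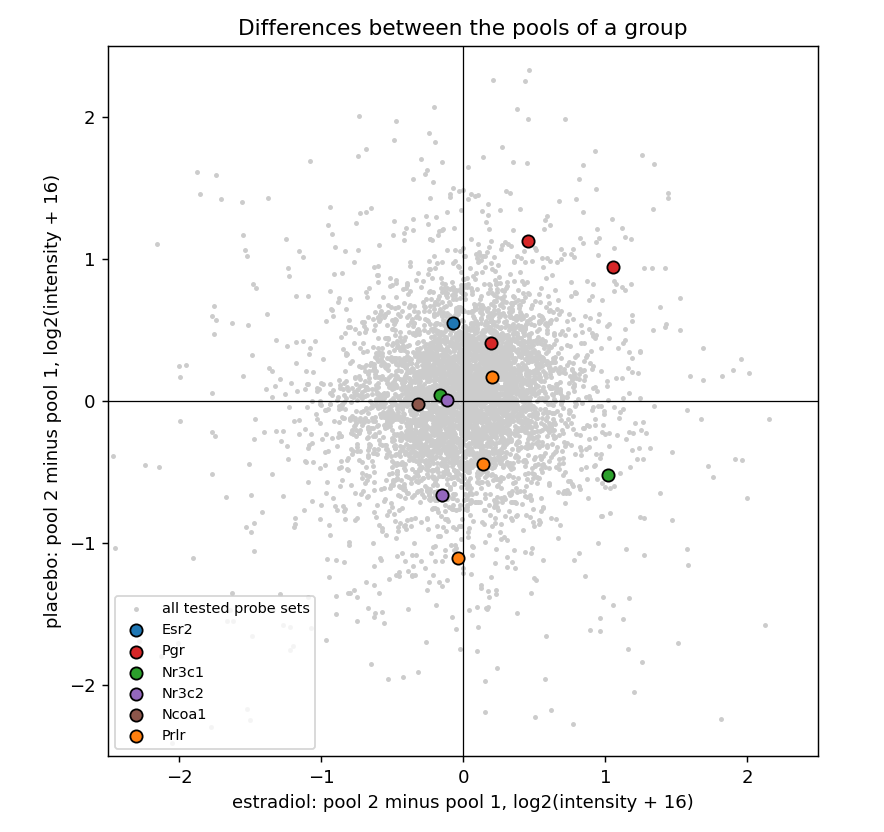
Pool 2 minus pool 1 within the estradiol group (horizontal) and within the placebo group (vertical), both in log2(intensity + 16), for all 5244 tested probe sets in grey and for the 12 receptor and coregulator probe sets above background on at least 1 array in colour. The axes end at 2.5, which leaves out 6 grey points, and the 3 Pgr probe sets lie in the upper right part, brighter in pool 2 of both groups, with L16922_at and S68284cds_at at background in pool 1.

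For the corticosteroid receptors no difference passed the test either. Nr3c1 encodes the glucocorticoid receptor, through which stress levels of corticosterone act. Its probe set rc_AA893618_s_at read 16.6 and 50.2 under estradiol against 52.8 and 32.0 under placebo, at background in estradiol 1 alone. The groups overlapped, and the difference of -0.31 ± 0.46 (SE; 95% confidence interval -1.38 to 0.76) became 0.20 without estradiol 1. The probe set M14053_at read 39.1 and 33.3 under estradiol against 37.1 and 38.6 under placebo. These 4 values lay within 0.36 log2 units of the highest foreign control of their array, 2 above it and 2 below. With a mean of 37.02 it fell just under the filter, and without the filter its difference was -0.05 (95% confidence interval -0.79 to 0.69). The third Nr3c1 probe set, rc_AI137538_at, was at background throughout, between 8.5 and 10.6.

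Nr3c2, the mineralocorticoid receptor gene, varied little over the arrays by its tested probe set, M36074_at. This probe set read 67.7 and 61.2 under estradiol against 62.3 and 62.9 under placebo. The means were 64.45 ± 4.60 (SD, n = 2) and 62.6 ± 0.424, a difference of 0.03 ± 0.27 (SE; 95% confidence interval -0.60 to 0.66). Its range over the 4 arrays, 0.12 log2 units, was the smallest among the 8 tested member probe sets. The probe set M36074_g_at from the same sequence record read 39.9 and 34.3 under estradiol against 37.5 and 17.8 under placebo. It was at background on 3 arrays and above it in estradiol 1 alone. Its range over the arrays was 0.73 log2 units. It was not tested since it lay below the filter, and the fit without the filter gave 0.32 (95% confidence interval -0.53 to 1.16).

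Ncoa1, also known as SRC-1, encodes a coactivator that steroid receptors recruit once hormone is bound. Its probe set rc_AA799683_at read 64.5 and 48.5 under estradiol against 46.7 and 45.8 under placebo. Both estradiol pools were above both placebo pools, as in 15.4% of all tested probe sets, but estradiol 2 exceeded placebo 1 by little. The means were 56.5 ± 11.3 (SD, n = 2) and 46.25 ± 0.636, a difference of 0.21 ± 0.31 (SE; 95% confidence interval -0.51 to 0.93) that did not pass (adjusted p = 0.998 in limma). Without estradiol 1 it was 0.05.

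Prlr encodes the prolactin receptor, which signals through JAK2 and STAT5. Its probe set L48060_s_at was the other tested probe set of the 8 without overlap and read 48.1 and 57.7 under estradiol against 67.8 and 78.1 under placebo. Both estradiol pools were below both placebo pools, as in 14.3% of all tested probe sets. The means were 52.9 ± 6.79 (SD, n = 2) and 72.95 ± 7.28. The difference of -0.37 ± 0.28 (SE; 95% confidence interval -1.02 to 0.28) was the furthest from 0 among the 8, and it did not pass (unadjusted p = 0.227 and adjusted p = 0.998 in limma). With any 1 array left out it lay between -0.47 and -0.27.

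The other Prlr probe sets did not share that pattern. U34897mRNA_at read 54.5 and 61.7 under estradiol against 82.3 and 56.4 under placebo. It was highest in placebo 1, and the difference of -0.19 ± 0.30 (SE; 95% confidence interval -0.88 to 0.50) became 0.03 without that pool. M74152_s_at read 35.4 and 34 under estradiol against 57.7 and 18.2 under placebo, so the placebo pools enclosed both estradiol pools. It was at background in estradiol 2 and placebo 2. It lay just below the filter, and its difference without the filter was 0.01 (95% confidence interval -1.02 to 1.05). M19304_at lay between 5.5 and 13.6 and M34083_at between 5.7 and 8.7, at background on every array, so the separation of the groups of M19304_at (both estradiol values above both placebo values) is not a measured difference.

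Ttr and with it the summed choroid plexus markers differed strongly between the pools of each group. This gene, which encodes transthyretin and marks the choroid plexus epithelium, read 165.3 and 4312 under estradiol against 8034 and 74.3 under placebo. Summed over the 9 measured choroid plexus markers, the level was 1089 and 5551 under estradiol against 10439 and 799.4 under placebo, and between 6 and 7 of the 9 were above background on each array. Slco1a5 was the only one of the 9 at background on all 4. Without Ttr, the sums were 923.7 and 1239 under estradiol against 2405 and 725.1 under placebo. Of the 5 other markers above background on all arrays, 5 were brighter in placebo 1 than in placebo 2. Of the same markers, 3 were brighter in estradiol 2 than in estradiol 1, with Kl and Igfbp2 (by M91595exon_s_at) going the other way. The tested Igfbp2 probe sets A09811cds_s_at and J04486_at, which are not in the sums, were brighter in estradiol 2 and in placebo 1. On the log2 scale of the fit, pool 2 minus pool 1 was 1.83 with estradiol and -2.89 with placebo for A09811cds_s_at. For J04486_at these gaps were 1.05 and -1.43. Placebo 1, which had the highest marker sum, also had the highest values of U34897mRNA_at and M74152_s_at, whereas L48060_s_at was highest in placebo 2, which had the lowest sum. In estradiol 2, with the second highest sum, U34897mRNA_at read 61.7 and L48060_s_at 57.7, against 54.5 and 48.1 in estradiol 1. M74152_s_at read 34 in estradiol 2 against 35.4 in estradiol 1. The part of the choroid plexus in the Prlr values was not tested.

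**Figure D4:**
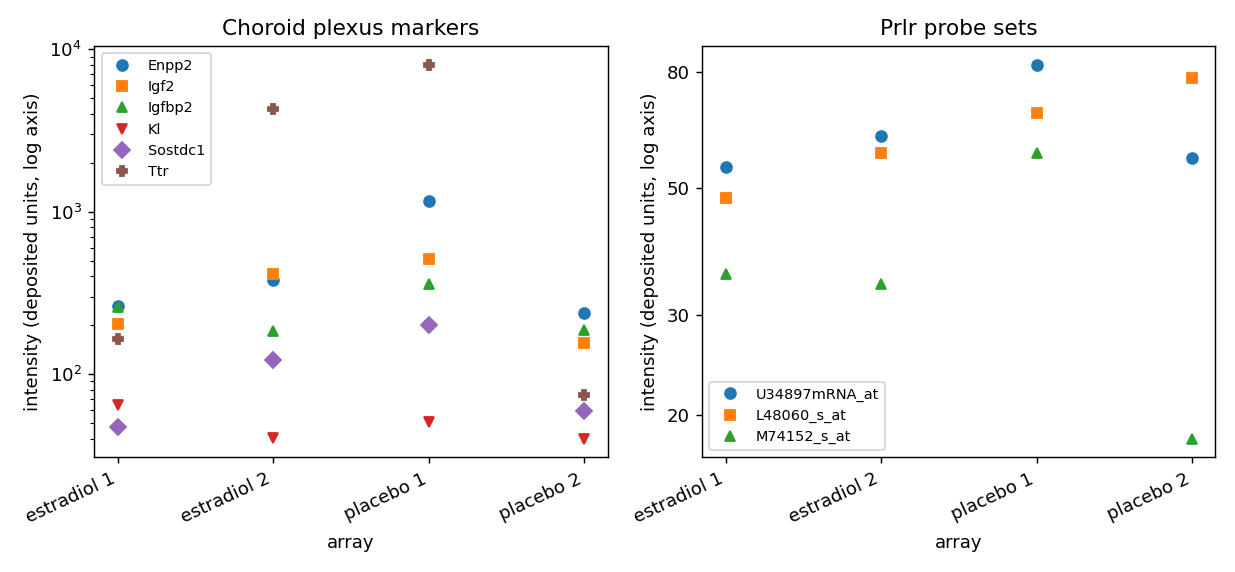
Intensity on each array (log axes, one point per array) of the 6 choroid plexus markers above background on all 4 arrays (left) and of the 3 Prlr probe sets above background on at least 1 array (right). Ttr is high in estradiol 2 and placebo 1, and of the Prlr probe sets U34897mRNA_at and M74152_s_at are highest in placebo 1 while L48060_s_at is highest in placebo 2.

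The upstream sequences of Ncoa1 and Prlr are shown because these were the genes with a tested probe set whose groups did not overlap. They come from RefSeq (GRCr8), run 5' to 3' on the strand of the gene and cover 250 bases before to 50 bases after an annotated start. Such windows were found for 6 of the 7 genes. Capitals mark matches on either strand to TGTTCT, the core hexamer of glucocorticoid, mineralocorticoid and progesterone receptor binding sites. The Ncoa1 window lies at chr6:33195875-33196174 (minus strand). The Prlr windows belong to separate annotated starts, at chr2:60861515-60861814 (plus strand) and at chr2:60909409-60909708 (plus strand).
Ncoa1: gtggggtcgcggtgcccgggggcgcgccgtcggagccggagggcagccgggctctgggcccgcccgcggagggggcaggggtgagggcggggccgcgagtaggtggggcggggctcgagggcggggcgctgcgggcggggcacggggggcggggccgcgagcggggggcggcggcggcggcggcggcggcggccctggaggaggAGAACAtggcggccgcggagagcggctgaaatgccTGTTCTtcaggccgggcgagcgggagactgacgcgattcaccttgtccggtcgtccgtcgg
Prlr upstream start: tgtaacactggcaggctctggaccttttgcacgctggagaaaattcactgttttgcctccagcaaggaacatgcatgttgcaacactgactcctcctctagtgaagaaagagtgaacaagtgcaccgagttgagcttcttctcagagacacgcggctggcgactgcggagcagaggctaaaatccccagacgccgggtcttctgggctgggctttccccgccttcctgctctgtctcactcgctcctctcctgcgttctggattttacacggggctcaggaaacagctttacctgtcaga
Prlr downstream start: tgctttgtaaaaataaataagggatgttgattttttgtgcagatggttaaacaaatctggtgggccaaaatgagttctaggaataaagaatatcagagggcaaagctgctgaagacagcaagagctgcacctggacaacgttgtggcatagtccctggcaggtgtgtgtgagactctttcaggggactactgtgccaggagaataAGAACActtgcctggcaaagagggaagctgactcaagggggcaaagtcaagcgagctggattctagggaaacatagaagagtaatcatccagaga

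The Ncoa1 window held 2 matches to TGTTCT and the downstream Prlr window 1, and 20.7% of all 33469 windows of this length held at least 1. None of the 8 windows of the members held AGGTCA, the core hexamer bound by estrogen receptors, which 16.2% of all windows held. The full palindromic elements, GGTCA followed after 3 bases by TGACC for estrogen receptors and AGAACA followed after 3 bases by TGTTCT for the others, were in none of the 8 windows and in 0.0269% and 0.0149% of all windows. A match is only a description of these letters, and the arrays did not measure binding.

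By the likeness of their profiles over the 4 arrays, the 4 member probe sets that varied most could be set beside other genes. Each of these 4 was at background on at least 1 array, so part of its range rests on values not measured above background. Likeness was the root mean square difference of centred log2 values, taken over 767 other genes whose range also exceeded 1 log2 unit. With only 4 arrays and 767 genes to choose from, close profiles can arise by chance, and the likeness was not tested. Closest to L16922_at of Pgr were Mtnr1a, Klk1c12 and Sfmbt1 with differences of 0.052 to 0.063, and closest to S68284cds_at were Nln, Polr2a and Dcaf7 with 0.049 to 0.083. Closest to rc_AA893618_s_at of Nr3c1 were Gnrh1, Rpl5 and Nacc1 with 0.040 to 0.077, and closest to M74152_s_at of Prlr were Abcb1a, Mdfic and Adm with 0.061 to 0.071. The probe sets of Rpl5, Dcaf7 and Mdfic were themselves at background on all 4 arrays, and each of the others on at least 1. Gnrh1, for example, stood at 15.0, 45.4, 47.2 and 31.4 in estradiol 1, estradiol 2, placebo 1 and placebo 2.

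Genes that work with the receptors were compared as lists, each gene by its brightest tested probe set. Of 17 tested partners of steroid receptors (coregulators and chaperones), 11 had differences above 0 and 6 below, with a median of 0.17 on the log2 scale against 0.01 over all tested probe sets. None passed the adjusted threshold in limma, and 9 of the 17 had groups that did not overlap (7 higher, 2 lower, against 15.4% and 14.3% of all tested). Cited2, a transcriptional coregulator gene that is also in the list of estrogen response genes, read 370.1 and 202.3 under estradiol against 111.6 and 124.4 under placebo, a difference of 1.12 ± 0.30 (SE). With any 1 array left out it lay between 0.71 (without estradiol 1) and 1.53 (without estradiol 2). Nr0b2, which encodes the corepressor SHP, had 0.48, or 0.20 to 0.77 with 1 array left out. Lowest among genes above background on all arrays were Cdc37, an HSP90 cochaperone gene, with -0.35 (-0.45 to -0.26 with 1 array left out), and Fkbp4, which encodes the cochaperone FKBP52, with -0.19 (-0.25 to -0.14).

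Other nuclear receptors were split nearly evenly. Of 17 tested, 8 had differences above 0 and 9 below, with a median of -0.0041, none passed in limma, and 6 had groups that did not overlap, against 29.7% of all tested. Furthest from 0 of the 17 was Hnf4a with -0.64, or -0.74 to -0.54 with 1 array left out. Hnf4a read 30.1 and 30.5 under estradiol, both at background, against 61.1 and 51.5 under placebo. Lowest among genes above background on all arrays was Rxrb, which encodes a retinoid X receptor, with -0.37, or -0.51 to -0.24 with 1 array left out. Rara, a retinoic acid receptor gene, had -0.32, or -0.62 to -0.01 with 1 array left out. Nr4a2, an orphan receptor gene, had 0.37, or 0.20 to 0.54 with 1 array left out. Nr4a1, an activity-induced orphan receptor gene, read 1556.7 and 364.6 under estradiol against 1232.8 and 219.8 under placebo. It was brighter in pool 1 of both groups, and its difference of 0.51 became -0.51 without estradiol 1 and -0.69 without placebo 2.

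Among 15 tested response genes of the corticosteroid receptors, 6 had differences above 0 and 9 below, with a median of -0.10 and none past the adjusted threshold in limma. The groups of 4 of the 15 did not overlap, against 29.7% of all tested. Scnn1g, a subunit gene of the epithelial sodium channel, read 83.8 and 113.3 under estradiol against 67.2 and 61.4 under placebo, a difference of 0.50 ± 0.27 (SE), or 0.31 to 0.69 with 1 array left out. The largest difference of the 15 was 0.74 ± 0.32 (SE) for Scnn1a, another subunit gene of that channel, which was at background in placebo 1. Scnn1a read 58.5 and 79.2 under estradiol against 32.6 and 36.5 under placebo, and its difference was 0.56 to 0.91 with 1 array left out. Gpd1, a glycerol phosphate dehydrogenase gene, had 0.27, which became -0.48 without estradiol 1 and 1.01 without estradiol 2. Lowest among genes above background on all arrays were Glul, the glutamine synthetase gene, with -0.19 (-0.24 to -0.15 with 1 array left out) and Anxa1, the annexin A1 gene, with -0.16 (-0.30 to -0.01).

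Estrogen response genes were evenly divided. Of 20 tested, 10 had differences above 0 and 10 below, with a median of 0.04, and none passed in limma, while 10 had groups that did not overlap (5 higher and 5 lower, against 15.4% and 14.3% of all tested). Penk, the enkephalin precursor gene and also a striatum marker, read 640.9 and 526.0 under estradiol against 174.3 and 279.0 under placebo, a difference of 1.33 ± 0.26 (SE), or 1.02 to 1.65 with 1 array left out. Without Penk, the 9 other striatum markers summed to 2208 and 2147 under estradiol against 1752 and 1769 under placebo. Of the 7 of these above background on all arrays, 2 (Drd1 and Tac1) had both estradiol pools above both placebo pools. Without Tac1 as well, the sums were 1828 and 1738 against 1644 and 1653, and the part of striatal tissue in the Penk value was not tested. Cited2, given above, was the second highest of those above background on all arrays. The largest difference of the 20 was 1.67 for Oxt, which was at background in placebo 1. Oxt read 41.9 and 493.5 under estradiol against 32.1 and 44.3 under placebo, and its difference was 0.10 without estradiol 2. Ctsd, the cathepsin D gene, had -0.43 (-0.57 to -0.29 with 1 array left out) and Nos3, the endothelial nitric oxide synthase gene, -0.41 (-0.70 to -0.12).

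The 8 tested genes of prolactin receptor signalling had differences from -0.30 to 0.18, 4 above and 4 below 0 and a median of 0.01. None passed in limma, and 1 of the 8 had groups that did not overlap, against 29.7% of all tested. Jak2, the kinase bound to the receptor, had 0.15 by U13396_g_at, or 0.03 to 0.26 with 1 array left out. Another tested probe set of Jak2, AJ000557cds_s_at, had 0.47. The adaptor gene Grb2 had 0.09, which became -0.06 without placebo 1. Sos1, an exchange factor gene for Ras, had -0.07 (-0.09 to -0.05 with 1 array left out) and Stat3, a transcription factor gene downstream of JAK kinases, -0.30 (-0.45 to -0.14).

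**Figure D5:**
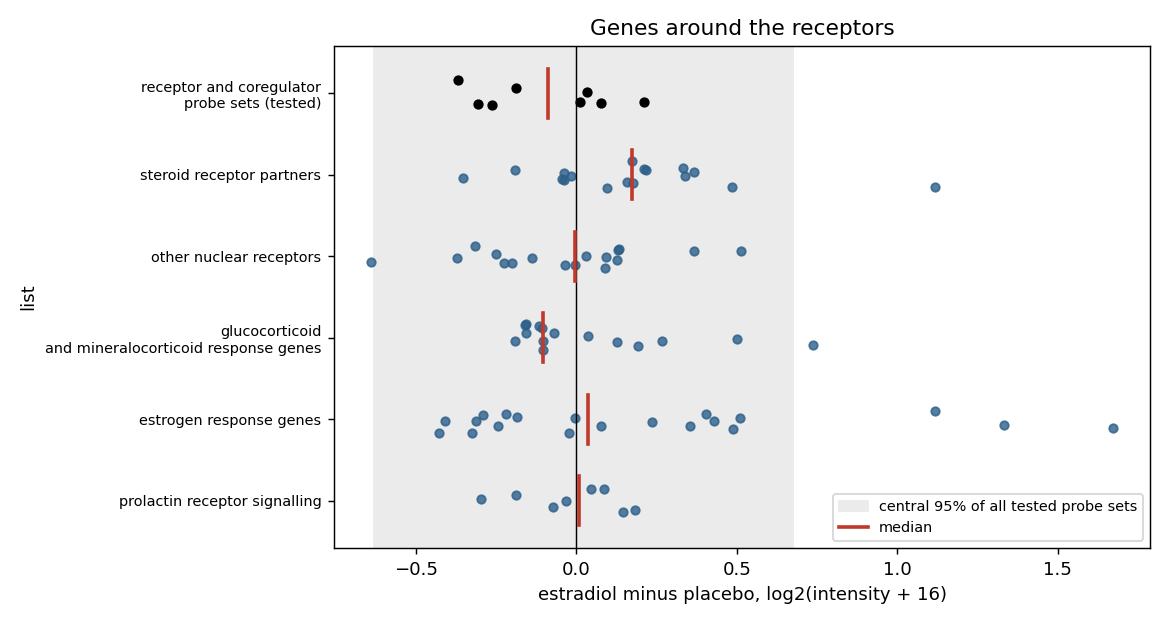
Difference between estradiol and placebo in log2(intensity + 16) for each gene of 5 lists (blue points) and for the 8 tested receptor and coregulator probe sets (black points), with the median of each row as a red bar and the central 95% of all 5244 tested probe sets in grey. The receptor probe sets lie between -0.37 and 0.21, inside the grey band, and Oxt, Penk and Cited2 are among the points outside it.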

How the data were processed

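Probe set values were used as the authors deposited them, 1 linear intensity per probe set and array. Their trimmed means lay between 150.18 and 150.20, so the arrays had been scaled before deposit. No source used here names the program. RNA of 5 µg per pool was labelled and 10 µg of cRNA hybridised, per the series design text, and the pools are described there as independent.

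Leaving out 59 controls among 8799 rows gave 8740 probe sets, to which the platform annotation assigns 1 symbol (7006), several (308) or none (1426). Array medians differed by at most 0.0558 on the log2 scale. Differences were fitted with limma 3.58.1 (R 4.3.3, lmFit, then eBayes with its trend option, two-sided test) on log2(intensity + 16) of 5244 probe sets, with Benjamini-Hochberg adjustment over all of them, 2 residual and 5.63 prior degrees of freedom. This scale understates changes of dim probe sets. No depth exists for arrays, and their number limits the precision. The fit was tested on simulated data. Figures were drawn with matplotlib 3.10.9.

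Members and lists were chosen with earlier results of these data known. List genes named are the 2 highest and 2 lowest differences among genes above background on all arrays, each gene by its brightest tested probe set. Oxt, Scnn1a and Hnf4a are named besides, each as the difference furthest from 0 in its list. Alternatives were offsets of 1 and 64, no filter, the 60th percentile, quantile normalisation, median centring, no trend, the pool number as a block, leaving out each array, gene means and 2 other background limits.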

Additional observations from a re-analysis of the deposited data

How the results depend on the processing

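In limma, 0 of the member probe sets and 0 of all probe sets passed the adjusted threshold under each of the 12 alternative fits, and 0 members had an unadjusted p below 0.05 in any of them. Over all probe sets the count at an unadjusted p below 0.05 was 161, against 337 with no filter and 89 when filtering at the 60th percentile. The small differences of Esr2 and Nr3c2 (M36074_at) turned to -0.0102 and -0.0044 with quantile normalisation and to -0.0209 and -0.00045 with median centring. For Pgr, the mean over its probe sets above background on at least 1 array gave 0.031 where its brightest gave -0.26. Of the probe sets in that mean, L16922_at and S68284cds_at were at background in pool 1 of both groups. With 1 array left out, the range was -0.26 to 0.29 for Esr2, -0.0259 to 0.0907 for Nr3c2, -0.49 to 0.64 for Pgr L16922_at, -0.82 to 0.20 for Nr3c1 and -0.41 to 0.032 for Prlr U34897mRNA_at. The signs of Ncoa1, Prlr L48060_s_at and Pgr S64044_s_at held in each fit that kept their probe sets. The 6 member probe sets above background on all arrays became 7, with M14053_at of Nr3c1, against the 90th percentile of the foreign controls. With the pool number as a replicate block, 0 probe sets passed. The pool gaps of the groups correlated at 0.0363 over 5244 probe sets, which cannot decide whether pools of the same number share anything. The numbers were not taken as pairs because no label names a pairing.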
